A study of Mus musculus with 4 samples.

Results

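Subset s6 comprised 542 of the 16948 analysed CD4 T cells. It was taken as the authors numbered it in a second round of clustering, which placed 9041 cells into 10 subsets taken from 6 of the authors' 10 first clusters. Its leading genes included Shmt1, Srm, Ung and Cdca7, and the subset is described by them, since the authors gave it a number only. The 8499 cells of the other 9 subsets served for comparison.

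The study profiled CD4 T cells from the mesenteric lymph nodes (mLN) of male mice by droplet single-cell RNA sequencing with 3′ v3 chemistry. Foxp3CNS1- mice lack CNS1, an enhancer within a Foxp3 intron that is required for making extrathymic (peripheral) regulatory T (Treg) cells. Foxp3GFP mice report Foxp3 through GFP with the enhancer in place. There were 4 groups of 1 library each. The colonized Foxp3CNS1- and colonized Foxp3GFP mice were raised germ-free and given fecal microbiota of specific-pathogen-free donors 9 days before analysis. The germ-free Foxp3CNS1- and germ-free Foxp3GFP mice stayed without microbes. Each library held cells pooled from 3 mice, GFP-positive and GFP-negative cells having been sorted into equal parts, with about 5000 cells targeted. Library and group cannot be told apart, and no value below has a replicate.

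Resting T cells keep ribosome production, nucleotide synthesis and glycolysis low, and hold quiescence factors such as KLF2, BTG1 and the IL-7 receptor. Upon antigen and cytokine signals they switch on MYC-dependent growth: nucleoli enlarge, transporters import amino acids, and one-carbon metabolism supplies purines and thymidylate before DNA replication begins. Replication genes peak in S phase, and mitotic genes such as Top2a, Ccnb2 and Nusap1 peak later, in G2 and M phase.

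The s6 cells were deeper than the other subset cells. They had a median of 4552.5 UMIs (unique molecular identifiers, which count captured RNA molecules) and 1632.5 genes, against 2470 UMIs and 1059 genes in the other subset cells. By library the s6 median was 4785 UMIs in colonized Foxp3CNS1-, 3866 in germ-free Foxp3CNS1-, 5031 in colonized Foxp3GFP and 4097 in germ-free Foxp3GFP. Subset s8, which expressed mitotic genes most, had a median of 10392 UMIs. No cell barcode was shared between libraries among the s6 cells, whereas 157 of 16791 barcodes were shared among all analysed cells. Of the s6 cells 402, or 74.2%, came from cluster 8 of the authors' first clustering, and 122, or 22.5%, came from cluster 6. Clusters 0 and 3 gave 9 cells each.

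The colonized Foxp3CNS1- library held 203 s6 cells, which were 5.75% of its subset cells (exact 95% binomial interval 5.0 to 6.56). The germ-free Foxp3CNS1- library held 86, or 4.57% (3.67 to 5.61). The colonized Foxp3GFP library held 143, or 6.96% (5.90 to 8.15), and the germ-free Foxp3GFP library held 110, or 7.0% (5.79 to 8.37). Intervals here and below cover counting error only. No order was read from these shares, because the sort by GFP can set them and because genes used in clustering also differed between libraries.

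Most of the cells carried T cell markers. Cd3d, a subunit of the T cell receptor complex, had a UMI in 92.3% of s6 cells and 92.6% of other subset cells. Cd4 had one in 41.0% of s6 cells and 32.9% of the others. These shares were not corrected for depth, which was greater in s6. Per 1000000 UMIs over all libraries, s6 held 777 of Cd3d against 1235 in the others, and 105 of Cd4 against 152. Cd8a had a UMI in 1 of 542 s6 cells. Cd8b1 had one in 26 s6 cells, or 4.80%, against 4.57% of the others. An exception among the s6 cells were 3 that carried 523, 683 and 893 UMIs of Jchain, the joining chain of secreted antibodies. They had no UMI of Cd4, Cd3e or Foxp3. Between 6041 and 11155 of their UMIs were immunoglobulin. They lay in colonized libraries, 2 in Foxp3CNS1- and 1 in Foxp3GFP. Immunoglobulin was not confined to them. At least 10 immunoglobulin UMIs were found in 62 s6 cells, or 11.4%, and in 8.08% of other subset cells. By library the s6 share was 14.8% in colonized Foxp3CNS1-, 3.49% in germ-free Foxp3CNS1-, 14.7% in colonized Foxp3GFP and 7.27% in germ-free Foxp3GFP. The myeloid markers Itgam, S100a8 and Flt3, the innate-like marker Zbtb16, the killer receptor Klrk1, the erythroid Hbb-bt and the fibroblast Col1a1 were at 0 in s6. A count of 0 in 542 cells allows a share of up to 0.554% of cells with a UMI. Further members of the same lists had UMIs. The 9 measured myeloid markers summed to 411 UMIs in s6, the 12 of cytotoxic and NK cells to 651, the 7 of innate-like T cells to 177 and the 2 of stroma to 104. The 10 B cell markers summed to 1141 UMIs. Per 1000000 UMIs, averaged over the libraries, the myeloid markers held 116 in s6 against 174 in the other subset cells. The cytotoxic and NK cell markers held 210 against 303, the innate-like markers 55.6 against 60.0, and the B cell markers 334 against 265. Doublets were not called here.

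Expression was compared as CPM, a gene's counts per 1000000 UMIs of the cells summed, averaged over the 4 libraries. Because the subset was itself defined from these genes, what follows describes it and tests nothing. Of 10417 genes with at least 50 UMIs, 741 (7.11%) were at least 2-fold higher in s6 than in the other subset cells, and 1302 (12.5%) were at least 2-fold lower, together 19.6%. The median log2 ratio over all genes was -0.13, with 4367 genes higher and 6050 lower in s6.

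Among genes with a UMI in at least 10% of s6 cells and higher in all 4 libraries, Shmt1 had the highest ratio. It encodes the cytosolic serine hydroxymethyltransferase that feeds one-carbon units to thymidylate synthesis (GRCm38 chromosome 11, 60788104 to 60811718, minus strand). Shmt1 had 73.2 CPM in colonized Foxp3CNS1-, 54.4 in germ-free Foxp3CNS1-, 75.8 in colonized Foxp3GFP and 53.5 in germ-free Foxp3GFP s6 cells. In the other subset cells of the 4 libraries it lay between 3.96 and 7.69 CPM. The library values of the 2 sets did not overlap, but the gene was picked for its high ratio. The share of all tested genes with library values apart in this way is not given, here or below. The mean was 64.2 CPM in s6 and 6.05 in the others, a 10.6-fold difference. Shmt1 was detected in 26.0% of s6 cells and 1.60% of the others.

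Srm makes spermidine, a polyamine needed for translation in growing cells (chromosome 4, 148591503 to 148594993, plus strand). It had 240.1 CPM in colonized Foxp3CNS1-, 181 in germ-free Foxp3CNS1-, 235 in colonized Foxp3GFP and 194 in germ-free Foxp3GFP s6 cells. The other subset cells held 32.6 to 35.5 CPM of Srm in the 4 libraries, and the ratio of means was 6.14. Srm had a UMI in 50.2% of s6 cells and 8.85% of the others. With each cell thinned to 1500 UMIs, which left out 20 s6 cells and 777 others, the shares were 21.5% and 4.61%. In first clusters 1 and 2, which entered no subset, Srm was in 12.3% of cells before thinning and 6.94% after.

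Ung, the uracil-DNA glycosylase that repairs uracil in newly copied DNA, had 98.5 CPM in s6 against 15.7 in the other subset cells (chromosome 5, 114130386 to 114139323, plus strand). Cdca7, a chromatin protein induced with the cell cycle, had 107 CPM in s6 against 20.4 in the others. Hk2, the inducible hexokinase, had 20.2 against 3.16 CPM. Dnph1 and Dctd, which act on deoxynucleotides, had 26.4 against 4.29 and 23 against 4.28 CPM. Slc7a5, the transport subunit of a leucine carrier, had 45.2 against 9.02 CPM. Pus7 and Pusl1 belong to the pseudouridine synthase family, and Pop1 is a subunit of RNase P, which trims transfer RNA precursors. Pus7 had 34 CPM in s6 against 5.82, Pusl1 had 40.6 against 8.30, and Pop1 had 27.8 against 5.64. Rrp12, a ribosome export factor, had 22.95 against 4.16 CPM. Itm2a, a transmembrane protein of activated T cells, had 206 against 42.04 CPM. The remaining leaders were Epop (29.8 against 4.33), Nefh (47.3 against 7.73) and the oligopeptidase Thop1 (34.8 against 6.88). All 16 genes were higher in s6 in each of the 4 libraries, which their selection required.

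**Figure D1:**
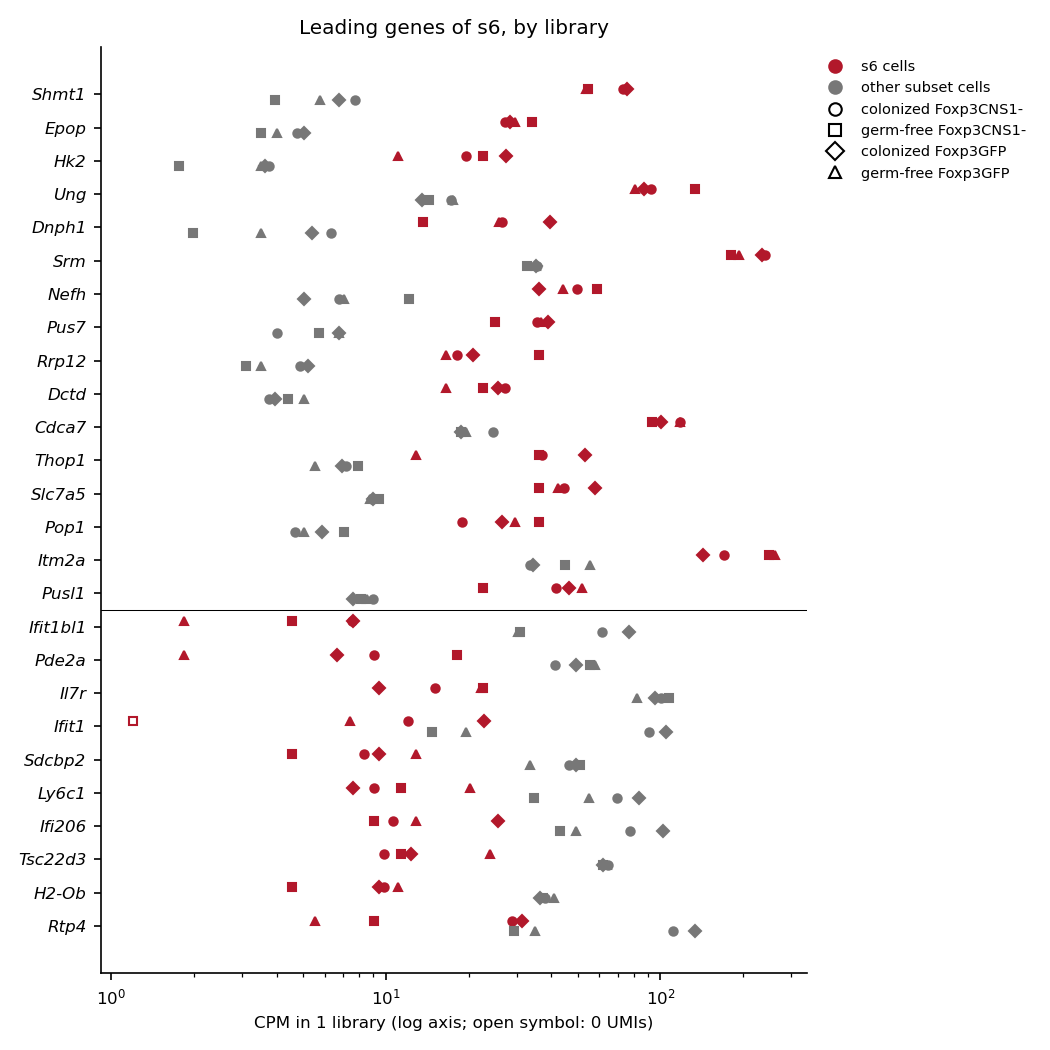
CPM (log axis) of the 16 leading higher and 10 leading lower genes of s6, 1 symbol per library, in s6 cells (red) and other subset cells (grey). Shmt1 lies between 53.5 and 75.8 CPM in s6 and between 3.96 and 7.69 CPM in the other subset cells, and Il7r between 9.47 and 22.7 CPM in s6 and between 82.0 and 108 CPM in the others.

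The genes lowest in s6 against the others included Il7r and a group of interferon-stimulated genes. Il7r, the receptor for the survival cytokine IL-7, had 15.1 CPM in colonized Foxp3CNS1-, 22.7 in germ-free Foxp3CNS1-, 9.47 in colonized Foxp3GFP and 22.1 in germ-free Foxp3GFP s6 cells. The other subset cells held between 82.0 and 108 CPM in the 4 libraries, above every s6 value. Tsc22d3, the glucocorticoid-induced leucine zipper GILZ, had 14.4 CPM in s6 against 63.0. Among the interferon-stimulated genes Ifit1bl1 had 5.38 against 49.8 CPM, Ifit1 10.5 against 57.4, Ifi206 14.5 against 67.99 and Rtp4 18.6 against 77.2. Ifit1 and Ifit1bl1 are close relatives, as are Ly6c1 and Ifi206 with their neighbours, so their counts may be shared among copies. Ly6c1 had 12.1 against 60.75 CPM. Pde2a, a phosphodiesterase that hydrolyses cyclic nucleotides, had 8.92 against 51.0, Sdcbp2 8.80 against 45.1, and H2-Ob, a chain of the MHC class II chaperone H2-O, 8.72 against 38.2 CPM.

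Promoters of the leading genes were read from RefSeq (GRCm38.p6), from 250 bases before to 50 bases after a gene's start. The table matched 10 of the 16 higher and 9 of the 10 lower genes. Those of Dnph1, Cdca7 and Ifit1 are shown, because each holds 1 of the 3 kinds of motif searched on both strands: the E-box CACGTG bound by MYC-family proteins, the E2F motifs TTTGGCGC and TTTCCCGC, and the interferon response element, written as a pair of GAAA runs with 2 free bases between. Capitals mark the matches, which may read on the opposite strand. The Dnph1 promoter holds the E-box, the Cdca7 promoter an E2F motif and the Ifit1 promoter the interferon response element, and none of the 3 holds a motif of another kind.
Dnph1 (chr17:46496539-46496838, plus strand): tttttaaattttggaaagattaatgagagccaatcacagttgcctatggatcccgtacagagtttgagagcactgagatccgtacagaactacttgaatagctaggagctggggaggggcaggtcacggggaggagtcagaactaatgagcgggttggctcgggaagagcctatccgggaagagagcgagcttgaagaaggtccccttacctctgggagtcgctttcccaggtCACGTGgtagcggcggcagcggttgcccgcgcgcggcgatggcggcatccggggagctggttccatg
Cdca7 (chr2:72475969-72476268, plus strand): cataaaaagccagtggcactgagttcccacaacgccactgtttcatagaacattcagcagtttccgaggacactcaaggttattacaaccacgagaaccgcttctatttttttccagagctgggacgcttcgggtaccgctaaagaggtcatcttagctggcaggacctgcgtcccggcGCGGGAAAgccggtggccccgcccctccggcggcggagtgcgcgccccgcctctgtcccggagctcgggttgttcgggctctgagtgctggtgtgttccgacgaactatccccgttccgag
Ifit1 (chr19:34640639-34640938, plus strand): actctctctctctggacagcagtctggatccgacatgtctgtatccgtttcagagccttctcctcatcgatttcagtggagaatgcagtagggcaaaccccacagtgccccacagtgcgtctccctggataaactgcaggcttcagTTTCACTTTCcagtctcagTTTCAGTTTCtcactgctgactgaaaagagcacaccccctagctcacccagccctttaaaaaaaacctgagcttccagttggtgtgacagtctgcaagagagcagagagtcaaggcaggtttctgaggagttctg
An E-box was present for 3 of the 10 matched higher genes, namely Dnph1, Pus7 and Pusl1, and for none of the 9 lower ones. Over the 8239 tested genes with a promoter in the table, 12.2% held an E-box. The share was 19.5% among the 609 matched genes at least 2-fold higher in s6 and 8.57% among the 968 at least 2-fold lower. Of the ribosome biogenesis genes described next, 7 of 29 (24.1%) held one. The E2F motifs occurred in 9 of 25 S phase genes (36.0%) against 3.75% of all tested genes, and the interferon response element in 18 of 24 interferon-stimulated genes (75%) against 3.94%. A gene with several starts counted when any of its promoters held the motif. A match is a string of letters and was not tested as a binding site.

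Ribosome biogenesis genes were higher together. Their list was made after values of s6 had been seen, so its counts describe s6 and support nothing. All 34 genes of this list were higher in s6, and 32 were at least 2-fold higher, against the 7.11% of all genes given above. Their median log2 ratio was 1.65, and it lay between 1.51 and 1.73 in all 14 alternatives tried. Npm1 and Ncl, the abundant nucleolar proteins nucleophosmin and nucleolin, had 2519 against 922 CPM and 1399 against 425 CPM. Fbl and Nop56, of the particle that methylates ribosomal RNA, had 427 against 158 CPM and 304 against 107 CPM. Mrto4, a 60S assembly factor, had 185 against 40.4 CPM, and Grwd1, a histone and ribosome assembly chaperone, 59.1 against 12.4 CPM. Polr1a, the largest subunit of RNA polymerase I, differed least, with 21.1 CPM in s6 and 15.3 in the others. The cytosolic ribosomal proteins themselves had a median log2 ratio of 0.07 over 92 genes, with 2 at least 2-fold higher.

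Summed over the 34 genes, ribosome biogenesis reached 9411 CPM in colonized Foxp3CNS1-, 8638 in germ-free Foxp3CNS1-, 9317 in colonized Foxp3GFP and 7748 in germ-free Foxp3GFP s6 cells. The other subset cells held between 3007 and 3188 CPM in the 4 libraries, below every s6 value. Among subsets s0 to s5, s7 and s8 the highest library value was 4251 CPM, in s8. Within single cells these genes took a median of 0.789% of the UMIs in s6, with quartiles of 0.528 and 1.06%. In the other subset cells the median was 0.276%, and 1.0% of cells lay at or above the s6 median. In s8 it was 2.64% of cells, and in s2 1.53%.

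**Figure D2:**
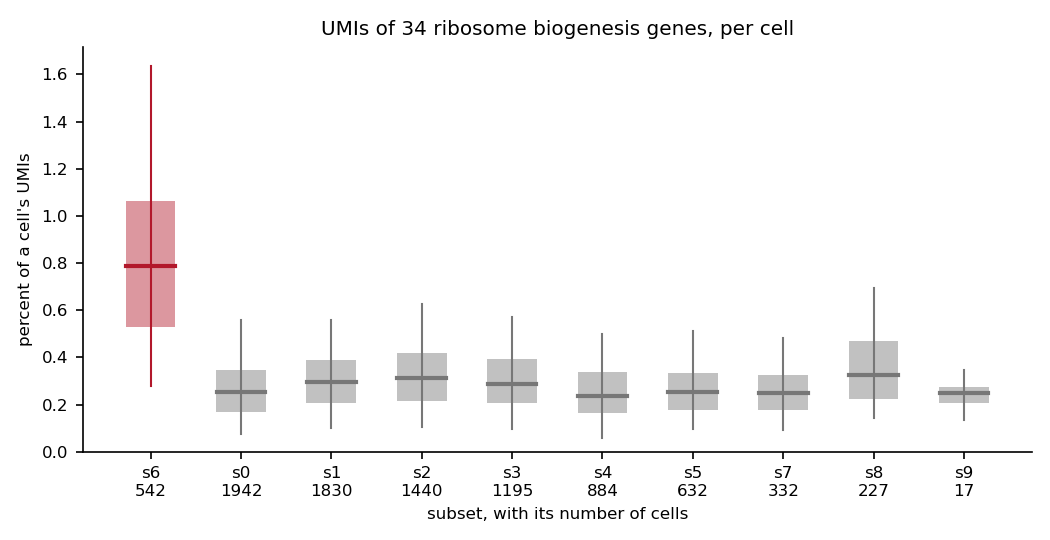
Percent of each cell's UMIs that came from 34 ribosome biogenesis genes, by subset with its number of cells. Thick line, median; box, 25th to 75th percentile; thin line, 5th to 95th percentile over cells; the s6 median of 0.789% stands above the 95th percentile of each other subset.

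Genes that supply building blocks and modify RNA were also higher. Of 12 measured one-carbon and serine genes 8 were at least 2-fold higher, with a median log2 ratio of 1.47. Shmt2, the mitochondrial partner of Shmt1, had 113 against 27.9 CPM, and Slc19a1, the folate carrier, 62.0 against 15.4. Mthfd2, a mitochondrial folate enzyme of activated T cells, had 98.4 against 79.1 CPM. Of 24 nucleotide synthesis genes 17 were at least 2-fold higher, with a median of 1.32. Cad, which starts pyrimidine synthesis, had 20.9 against 5.98 CPM, and Impdh2, which commits purines to guanine nucleotides, 347 against 116 CPM. Among 14 transfer RNA modification genes all were higher and 8 were past 2-fold. Mettl1, which methylates guanosine in transfer RNA, had 116 CPM in s6 against 24.6 (chromosome 10, 127041414 to 127046365, plus strand), and its partner Wdr4 had 36.5 against 9.43.

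Mitochondrial import and chaperone genes were higher for 24 of 24 members, 16 of them past 2-fold, with a median of 1.26. Hspd1, the mitochondrial chaperonin, had 491 against 106 CPM. Heat shock genes had a median of 1.21 with 5 of 10 past 2-fold. Glycolysis genes were mixed: Hk2, Tpi1, Pgam1 and Ldha were past 2-fold, while the glucose transporter Slc2a3 had 9.67 CPM in s6 against 24.2. Myc, the growth regulator, had 64.9 CPM in colonized Foxp3CNS1-, 68.0 in germ-free Foxp3CNS1-, 64.4 in colonized Foxp3GFP and 66.4 in germ-free Foxp3GFP s6 cells. The other subset cells held 25.4 to 29.05 CPM of Myc, below all 4 values. The list of the MYC network holds Myc with its partners and antagonists. Of its 8 measured members 2 were higher and 6 lower, with a median of -0.11. That lay near the median of -0.13 over all genes, of which 4367 were higher and 6050 lower. The list summed to 299.7 CPM in s6 against 351. The antagonist Mxd4, its member past 2-fold lower, had 56.9 CPM in s6 against 130.3. Genes of T cell receptor signalling had a median of 0.40, with 11 of 14 higher and 3 lower, 5 and 1 of them past 2-fold. Examples were Nr4a1 at 59.9 against 20.6, Tnfrsf9 at 315 against 121 and Irf4 at 38.5 against 16.1 CPM. Immediate early genes, which receptor signals also induce, were lower for 10 of 11 members, 5 of them past 2-fold, with a median of -0.82.

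Quiescence genes were mostly lower in s6. Of 16 members 11 were at least 2-fold lower and none 2-fold higher, with a median log2 ratio of -1.40, beside 12.5% of all genes lower by that fold. Klf2, which holds T cells at rest and directs recirculation, had 167 CPM in s6 against 507, and its target S1pr1 had 23.9 against 88.1. Btg1, an antiproliferative factor, had 484 against 1237 CPM, Cdkn1b, the inhibitor p27, 17.9 against 51.5, and Txnip, which restrains glucose uptake, 27.9 against 108. Ccr7 did not share this pattern, with 161 CPM in s6 and 149 in the others. Of 29 interferon-stimulated genes 18 were at least 2-fold lower, with a median of -1.27. Isg15 was an exception, with 142 and 141 CPM.

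**Figure D3:**
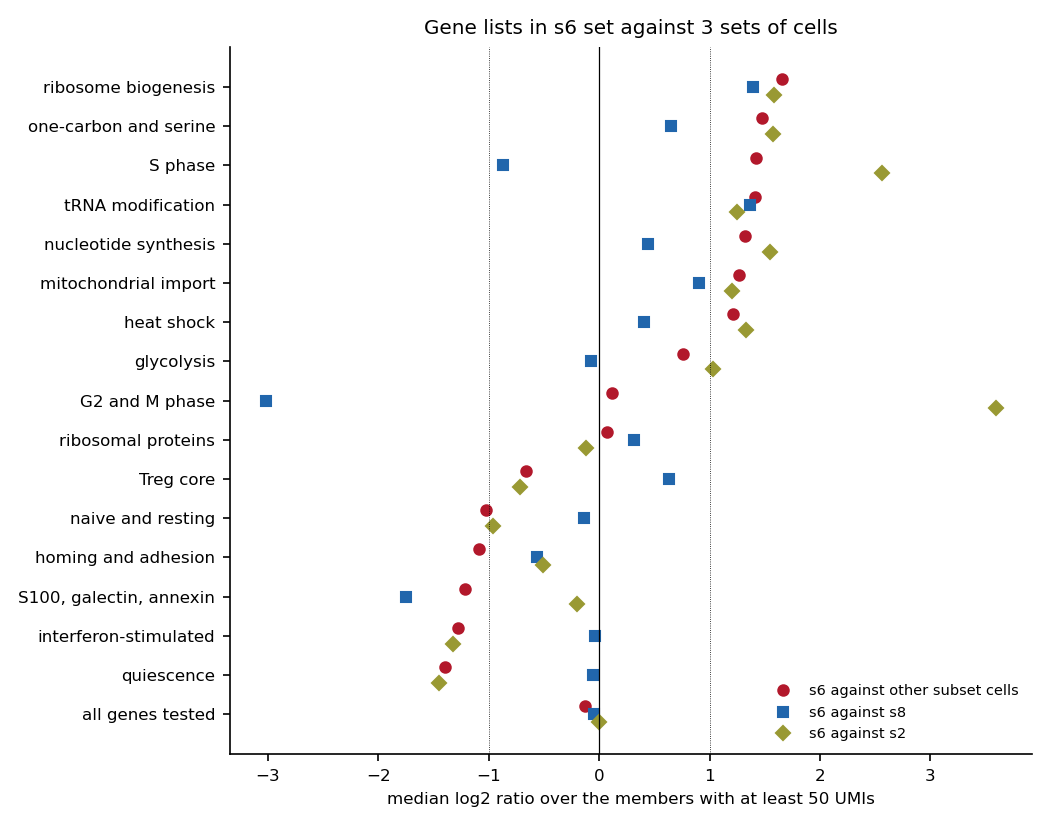
Median log2 ratio of gene lists in s6 against the other subset cells (red), s8 (blue) and s2 (olive); dotted lines mark 2-fold. Ribosome biogenesis stands at 1.65, 1.39 and 1.58, while G2 and M phase genes stand at 0.12, -3.01 and 3.59.

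The cell cycle separated s6 from its nearest neighbours. Across 13314 genes the mean profile of s6 correlated most with s8 (Pearson r = 0.948 of log2(mean CPM + 1)) and next with s2 (r = 0.942); these are descriptions over genes of shared libraries. Against all other subset cells, 24 of 32 S phase genes were at least 2-fold higher in s6, with a median log2 ratio of 1.42, and none was lower. Pcna, the replication clamp, had 272 CPM in s6 against 111, and the helicase subunit Mcm5 had 114 against 32.7. Single cells were less apart than these sums. S phase genes took a median of 0.0853% of a cell's UMIs in s6 and 0.0508% in the others. Of the other subset cells 26.7% lay at or above the s6 median. Within s6 the 75th percentile was 0.156% and the 95th was 0.640%. Among 28 genes of G2 and M phase none was past 2-fold in either direction, with a median of 0.12. That median depended on s8: with s8 left out of the other cells it was 2.42, and it was -0.88 when the deepest cells, those past the 98th percentile of UMIs in their library, were left out.

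Set against s8 alone, 448 of 7302 genes (6.14%) were at least 2-fold higher in s6 and 569 (7.79%) at least 2-fold lower. All 27 measured G2 and M phase genes were at least 2-fold lower, with a median of -3.01. Nusap1, a spindle protein, had 18.9 CPM in s6 against 342 in s8, and Ccnb2, a mitotic cyclin, 20.3 against 302. S phase genes had a median of -0.87, 13 of 32 being past 2-fold lower. Ribosome biogenesis genes were at least 2-fold higher for 29 of 34, with a median of 1.39. Quiescence genes summed to 1330 CPM in s6 and 1437 in s8, with a median log2 ratio of -0.06, so that they were low in both subsets. Interferon-stimulated genes had a median of -0.04. One-carbon genes summed to 927 CPM in s6 and 933 in s8 with a median of 0.65, and nucleotide synthesis genes to 4446 and 4565 CPM with a median of 0.44. Mettl1 had 116 CPM in s6 against 15.3 in s8, Myc 65.9 against 9.87, Kdm5b, a histone demethylase, 23.3 against 0.959, and Irf8 88.3 against 14.1. Against s2, 820 of 8005 genes (10.2%) were at least 2-fold higher and 682 (8.52%) at least 2-fold lower. Rrm2, a subunit of ribonucleotide reductase, had 118 CPM in s6 against 2.65 in s2, with a UMI in 13.1% of s6 cells. Of 30 measured S phase genes 29 were past 2-fold higher. By single cells, 22.8% of s2 cells lay at or above the s6 median share of S phase UMIs.

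A UMI of Top2a, the topoisomerase of G2 and M phase, was found in 15.3% of s6 cells, 4.93% of other subset cells and 82.8% of s8 cells. Thinned to 1500 UMIs the shares were 5.56% in s6, 2.95% in the others and 50.2% in s8, beside 0.575% in first clusters 1 and 2. Any of the 28 G2 and M phase genes appeared after thinning in 24.1% of s6 cells, 15.99% of other subset cells and 96.5% of s8 cells. Any of the 32 S phase genes appeared in 73.6% of s6 cells, 58.1% of other subset cells and 93.4% of s8 cells, and in 51.3% of the cells of first clusters 1 and 2. The 35 s6 cells without any UMI of either list still held 7955 CPM of ribosome biogenesis genes, and they were shallower, with a median of 2408 UMIs.

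**Figure D4:**
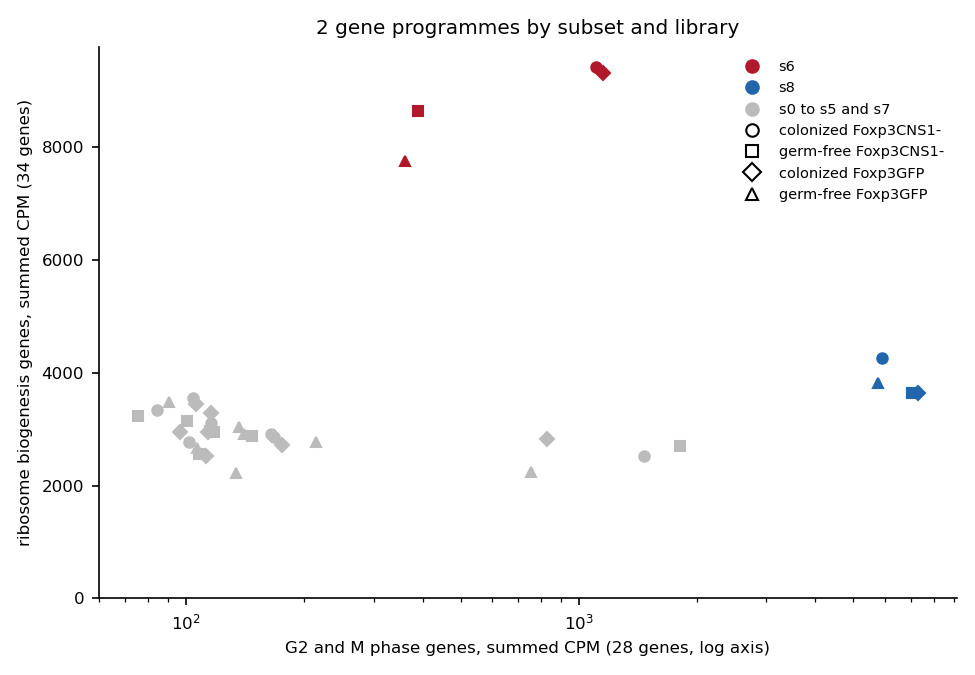
Summed CPM of 34 ribosome biogenesis genes against summed CPM of 28 G2 and M phase genes (log axis), 1 symbol per subset and library; s9, with 17 cells, is not drawn. The s6 symbols (red) lie between 7748 and 9411 CPM of biogenesis genes and 361 and 1154 CPM of mitotic genes, and the s8 symbols (blue) between 3631 and 4251 and between 5786 and 7300 CPM.

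The subset held cells with and without a Foxp3 UMI. Foxp3, the lineage factor of Treg cells (chromosome X, 7573644 to 7595245, plus strand), had a UMI in 117 of 542 s6 cells, or 21.6%, and in 27.4% of other subset cells. Thinned to 1500 UMIs the shares were 9.77% and 17.9%, and in first clusters 1 and 2, taken as background at a median of 2697 UMIs, 5.54% before and 3.36% after thinning. Foxp3 had 47.6 CPM in colonized Foxp3CNS1-, 27.2 in germ-free Foxp3CNS1-, 61.6 in colonized Foxp3GFP and 70.1 in germ-free Foxp3GFP s6 cells. The other subset cells held 124 to 149.9 CPM, above all 4 values. The enhancer lies in an intron that 3′ reads do not cover, so these counts check no genotype. Over all 10417 tested genes 6050 were lower in s6, and 12.5% were at least 2-fold lower. Of 14 core Treg genes 13 were lower in s6, 3 past 2-fold, with a median of -0.67. Tnfrsf4, which encodes OX40, was the exception, with 1186 CPM in s6 against 613. Ikzf2, which encodes Helios, had 301 against 515 CPM, and Il2ra, the high-affinity IL-2 receptor chain, 92.5 against 145. Against s8 alone the core Treg list went the other way, with 11 of 14 genes higher in s6, 4 past 2-fold, and a median of 0.63. Against s2 12 of 14 were lower, with a median of -0.71.

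Ribosome biogenesis genes were above the level of the other subset cells with and without a Foxp3 UMI. The 117 s6 cells with a Foxp3 UMI held 7700 CPM of ribosome biogenesis genes, and the 425 without held 9375 CPM. Among the other subset cells, those with a Foxp3 UMI held 3151 CPM and those without 3103 CPM. Itm2a had 42.6 CPM in the cells with and 227 CPM in the cells without a Foxp3 UMI. By first clustering, the 122 cells from cluster 6 held 5889 CPM of ribosome biogenesis genes and 103 CPM of Foxp3, and the 402 from cluster 8 held 9824 and 41.6 CPM. S phase genes summed to 941 CPM in the cluster 6 cells and 2834 CPM in the cluster 8 cells. Both parts lay above the 3188 CPM of biogenesis genes that was the highest library value of the other subset cells.

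A few s6 cells carried most UMIs of several secreted factors, described here after their values were seen. The subset held 5.99% of the subset cells and 11.5% of their UMIs. Of the chemokine Ccl1, 163 UMIs in 12 s6 cells made up 93.7% of all UMIs in subset cells. Il17f, a cytokine of Th17 cells, had 116 UMIs in 10 s6 cells, 88.5% of the total, with 70 of them in 1 cell. Xcl1, a chemokine for dendritic cells, had 266 UMIs in 12 cells, or 68.2%, and Il2, the T cell growth factor, 127 UMIs in 15 cells, or 51.2%. Ifng had 3 UMIs in s6 and Csf2 had 1. Il4 had 25 UMIs in s6, or 3.51% of the total.

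Colonization of Foxp3GFP mice was examined within s6 by setting the colonized against the germ-free library. Of 3711 genes with at least 50 UMIs, 91 (2.45%) were at least 2-fold higher and 36 (0.970%) at least 2-fold lower in the colonized library, together 3.42%. Among 8780 genes of the other subset cells 1.29% were higher and 0.797% lower by that fold, together 2.08%. The thresholds are on the ratio of CPM, since 1 library per group allows no test. Ly6a, an interferon-inducible surface protein known as Sca-1, had 398 CPM in colonized and 29.5 in germ-free s6 cells, a log2 ratio of 3.75 (exact 95% interval 3.04 to 4.57). It was found in 84 of the 143 colonized and 12 of the 110 germ-free cells. Its other subset cells had a Ly6a log2 ratio of 2.16 (2.04 to 2.28).

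The further genes highest in colonized Foxp3GFP s6 cells rested on few cells. For Jchain, 526 UMIs stood against none, at least 90.05-fold more by a floor of 3 counts in the germ-free library, and 523 of them came from the 1 antibody-rich cell described above. Slpi had 223 UMIs against 1 and Mzb1 121 against 1, ratios of 115 and 62.1, with all colonized UMIs in 2 cells and 1 cell. Ccl20 had 83 UMIs against 0 in 2 cells, and Il17f 80 against 0 in 6 cells. Among genes lower in the colonized library, Rel, the NF-kappaB subunit c-Rel, had 18.9 CPM in colonized and 75.6 in germ-free s6 cells, a log2 ratio of -2.00 (-2.85 to -1.19). Tnfsf8, the CD30 ligand, had 40.7 against 144 CPM and a log2 ratio of -1.82. Cd83 had 42.6 against 138 CPM, Ccl5 22.7 against 68.2, Foxp1 126 against 269 and Tox 63.4 against 148 CPM. These UMIs lay in 11 to 62 cells of each library. Ccl5 was the most concentrated, with 62.5% of its colonized UMIs in 3 of 11 cells and 54.1% of its germ-free UMIs in 3 of 13, and Tnfsf8 had 48.7% of its germ-free UMIs in 3 of 16 cells. All 6 were also lower in the other colonized subset cells, with log2 ratios between -1.37 and -0.27.

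Colonization of Foxp3CNS1- mice gave 86 of 3936 genes (2.18%) at least 2-fold higher and 29 (0.737%) at least 2-fold lower in colonized s6 cells. These were 2.92% together. Among 9474 genes of the other subset cells 1.44% were higher and 1.06% lower, together 2.49%. Ly6a had 420 CPM in colonized and 86.1 in germ-free Foxp3CNS1- s6 cells. Plac8 had 144 UMIs in 25 colonized cells and none in germ-free ones, at least 15.99-fold by the floor, and the other subset cells had a log2 ratio of 2.54 (2.25 to 2.84). Il2 had 104 UMIs against 0, of which 77.9% lay in 3 cells, Gzma 91 against 0 with 98.9% in 3 cells, and Jchain, Slpi and Mzb1 again lay in few cells. Without the cells rich in Jchain, Mzb1 had 1 UMI in the colonized and 5 in the germ-free library, the 5 in 1 cell, too few for a ratio. Gata3, the Th2 and Treg factor, had 31.7 CPM in colonized and 95.2 in germ-free cells, a log2 ratio of -1.59 (-2.24 to -0.93). Nkg7, a cytotoxic granule protein, had 36.2 against 159 CPM, whereas its ratio in the other subset cells was above 1, at a log2 ratio of 0.79 (0.52 to 1.06). In the germ-free cells 62.9% of the Nkg7 UMIs lay in 3 cells. Ptpn11 had 27.9 against 79.3 CPM, Prkca 128 against 281, Eomes 21.9 against 63.5 and Ctsw 25.7 against 70.3 CPM. The 28 germ-free Eomes UMIs came from 6 cells, with 78.6% of them in 3 cells.

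Summed over whole lists, mitotic genes were higher in colonized s6 cells of both strains. The 28 G2 and M phase genes had 1108 CPM in colonized and 390 in germ-free Foxp3CNS1- s6 cells, a log2 ratio of 1.51 (1.28 to 1.74), against 0.85 (0.78 to 0.92) in the other subset cells. They had 1154 CPM in colonized and 361 in germ-free Foxp3GFP s6 cells, a log2 ratio of 1.68 (1.46 to 1.90), against 0.66 (0.59 to 0.73). The Foxp3CNS1- value lay between 1.16 and 1.54 under the alternatives. The Foxp3GFP value was 0.45 after thinning and 0.19 without the deepest cells, which were 27 colonized and 20 germ-free s6 cells with 49.4% and 38.9% of the s6 UMIs. The part of these deep cells in the result was otherwise not tested. After thinning, a UMI of at least 1 mitotic gene occurred in 26.6% of the colonized and 21.4% of the germ-free Foxp3CNS1- s6 cells (intervals 20.5 to 33.4 and 13.2 to 31.7). In Foxp3GFP the shares were 28.3% of colonized and 16.7% of germ-free s6 cells (20.9 to 36.6 and 10.2 to 25.1). Both pairs of intervals overlapped.

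Interferon-stimulated genes were also higher after colonization. The 29 genes had 2678 CPM in colonized and 1845 in germ-free Foxp3CNS1- s6 cells, a log2 ratio of 0.54 (0.43 to 0.65), against 0.91 (0.88 to 0.93) in the other subset cells. In Foxp3GFP they had 2853 CPM in colonized and 1593 in germ-free s6 cells, 0.84 (0.73 to 0.95), against 1.18 (1.15 to 1.21). Ifi27l2a, the most abundant of them, had 1269 CPM in colonized and 913 in germ-free Foxp3CNS1- s6 cells, and 1342 in colonized and 631 in germ-free Foxp3GFP s6 cells. Ribosome biogenesis differed little, with log2 ratios of 0.12 (0.07 to 0.18) in Foxp3CNS1- and 0.27 (0.21 to 0.32) in Foxp3GFP, against 0.08 and 0.02 in the other subset cells. S phase genes had a log2 ratio of -0.17 (-0.27 to -0.08) in Foxp3CNS1- and 0.62 (0.52 to 0.73) in Foxp3GFP, against 0.46 and 0.25 in the other subset cells. The Foxp3CNS1- value in s6 turned to 0.67 without the deepest cells, and whether the strains differ was not tested.

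**Figure D5:**
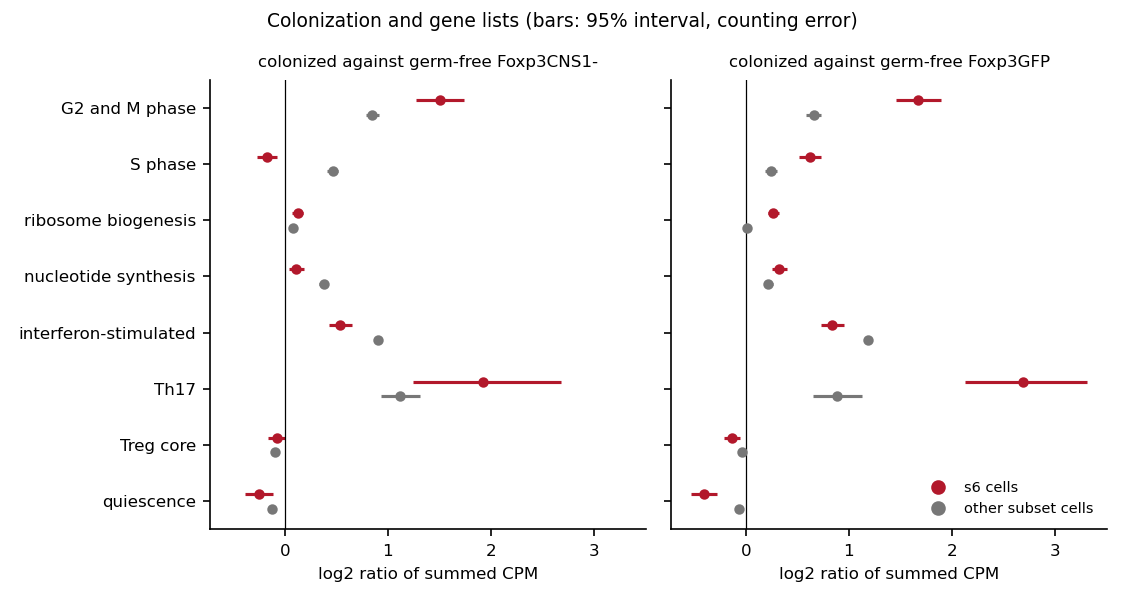
Log2 ratio of the summed CPM of 8 gene lists, colonized over germ-free, in s6 (red) and other subset cells (grey) of Foxp3CNS1- (left) and Foxp3GFP (right) mice; bars are exact 95% intervals for counting error. G2 and M phase genes stand at 1.51 and 1.68 in s6, against 0.85 and 0.66 in the other subset cells.

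The 11 Th17 genes had 163 CPM in colonized and 43.1 in germ-free Foxp3CNS1- s6 cells, and 322 in colonized and 49.8 in germ-free Foxp3GFP s6 cells. In Foxp3GFP 1 cell held 70 Il17f, 1 cell 56 Il17a and 1 cell 77 Ccl20 UMIs. The log2 ratio was 1.92 in Foxp3CNS1- and 2.69 in Foxp3GFP, and after thinning 1.10 in Foxp3CNS1- and 0.97 in Foxp3GFP. In the other subset cells it was 1.12 (0.93 to 1.32) in Foxp3CNS1- and 0.89 (0.65 to 1.13) in Foxp3GFP. Il22 was more widely spread, with UMIs in 12 colonized Foxp3CNS1- and 7 colonized Foxp3GFP s6 cells and in 0 of 86 germ-free Foxp3CNS1- and 0 of 110 germ-free Foxp3GFP cells, which allows shares of up to 3.49% and 2.73%. The 5 Th2 genes summed to less after colonization, with 65.7 against 156 CPM in Foxp3CNS1- and 61.6 against 116 CPM in Foxp3GFP. The log2 ratios were -1.25 and -0.92, against -0.88 and -0.33 in the other subset cells of the same strains. In Foxp3CNS1- s6 cells Gata3, a Th2 and Treg factor, gave 31.7 of the colonized and 95.2 of the germ-free CPM. Il4 had 8 colonized and 11 germ-free UMIs there.

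The genotype comparison in germ-free mice gave 12 of 2517 genes (0.477%) at least 2-fold higher and 14 (0.556%) at least 2-fold lower in Foxp3CNS1- s6 cells. These were 1.03% together. Among 8491 genes of the other subset cells 0.495% were higher and 0.153% lower, together 0.648%. The replication genes Mcm5 and Mcm3 were among those higher. Mcm5 had 145 CPM in Foxp3CNS1- and 57.2 in Foxp3GFP, a log2 ratio of 1.34 (0.70 to 2.01). Mcm3 had 159 and 71.9 CPM, but its log2 ratio of 1.14 was -0.057 without the deepest cells, where 9 Foxp3CNS1- and 13 Foxp3GFP UMIs were left. Pcna, which stayed under 2-fold, had 360.4 and 186 CPM, a log2 ratio of 0.95 (0.58 to 1.33). The 32 S phase genes summed to 2767 CPM in Foxp3CNS1- and 1785 in Foxp3GFP, a log2 ratio of 0.63 (0.51 to 0.76), which was 0.06 without those deep cells. Among the other subset cells it was -0.02 (-0.08 to 0.05). Nkg7 had 159 and 42.4 CPM, Ly6a 86.1 and 29.5, and Xcl1 172 and 62.7, the last from 3 Foxp3CNS1- and 5 Foxp3GFP cells and of the other sign with each cell weighted equally. Nkg7 UMIs lay in 8 Foxp3CNS1- and 7 Foxp3GFP cells, with 62.9% and 82.6% of them in 3 cells. Ly6a UMIs lay in 14 and 12 cells, with 57.9% and 43.8% in 3 cells. In the other subset cells the log2 ratio was 0.22 (-0.14 to 0.60) for Nkg7, -0.006 (-0.16 to 0.15) for Ly6a and 2.31 (1.37 to 3.38) for Xcl1.

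Foxp3 was among the genes lower in germ-free Foxp3CNS1- s6 cells, with 12 UMIs in 10 of 86 cells against 38 UMIs in 27 of 110 Foxp3GFP cells. Its log2 ratio was -1.37 (-2.44 to -0.40), and in the other subset cells -0.05 (-0.22 to 0.12). After thinning a Foxp3 UMI was found in 4.76% of Foxp3CNS1- (1.31 to 11.7) and 11.1% of Foxp3GFP s6 cells (5.87 to 18.6), intervals that overlapped. First clusters 1 and 2 of the germ-free Foxp3CNS1- library showed 4.46%. The sort by GFP sets how many Foxp3-expressing cells entered a library, and fewer such cells and less Foxp3 RNA per cell cannot be told apart in these sums. Lgals1, encoding galectin-1, had 145 CPM in Foxp3CNS1- and 288 in Foxp3GFP, just under 2-fold lower. Ptms had 70.3 and 144, Utrn 49.9 and 109, and Dgkz, which ends diacylglycerol signals, 54.4 and 114 CPM.

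In colonized mice 22 of 4757 genes (0.462%) were at least 2-fold higher and 28 (0.589%) at least 2-fold lower in Foxp3CNS1- s6 cells, together 1.05%. Among 9575 genes of the other subset cells 0.334% were higher and 0.188% lower, together 0.522%. Tnfsf8 had 102 CPM in Foxp3CNS1- and 40.7 in Foxp3GFP, a log2 ratio of 1.32 (0.82 to 1.85), over 50 and 26 cells. Xcl1 (156 UMIs against 0), Gzma (91 against 6), Il2 (104 against 22), Ccl1 (99 against 30) and Jchain (1580 against 526) each had at least 77.9% of their Foxp3CNS1- UMIs in 3 cells. Among the lower genes, Anxa2 had 10 UMIs in 9 Foxp3CNS1- cells against 43 in 11 Foxp3GFP cells. Hist1h2ap, a replication-dependent histone, had 278 and 848 CPM, and S100a4 12.8 and 44.5 CPM. The log2 ratios of both changed sign, to 0.24 for Hist1h2ap without the deepest cells, where 14 and 7 UMIs were left, and to 0.33 for S100a4 after thinning, from 7 and 4 UMIs. Il17a had 0 UMIs against 57, Ccl20 1 against 83 and Il17f 36 against 80, all in few cells, and the log2 ratio of Il17f was 0.45 with each cell weighted equally. Without the deepest cells Il17f had 35 UMIs in Foxp3CNS1- and 2 in Foxp3GFP. Summed over whole lists, ribosome biogenesis had a log2 ratio of 0.01 (-0.02 to 0.05), G2 and M phase genes -0.06 (-0.17 to 0.05) and core Treg genes -0.07 (-0.13 to -0.01). The mitotic value was 0.82 without the deepest cells, which were 20 of 203 Foxp3CNS1- and 27 of 143 Foxp3GFP s6 cells. Larger ratios were found for the 11 Th17 genes, with 163 CPM in Foxp3CNS1- and 322 in Foxp3GFP, a log2 ratio of -0.98 (-1.23 to -0.73), which was 0.75 without the deepest cells. The plasma cell list had 1470.2 and 711 CPM, most of it from the antibody-rich cells, and its log2 ratio of 1.05 was 0.44 without them. The B cell list had 418 and 259 CPM, and the cytotoxic and NK cell list 205 and 129 CPM.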

How the data were processed

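The authors deposited a table of UMI counts per cell and gene, for which the submitters' processing notes list mm10, Cell Ranger and Scanpy 1.5.1, and a table with each cell's library, clusters and filter. Each count was checked to be whole and not negative. How the authors filtered cells and genes is not known from the sources used here. Cells without a row in the cell table (227), cells the authors had removed (303) and 3 columns of that table were not used. The s6 cells held 3363877 UMIs in all, from 441200 in germ-free Foxp3CNS1- to 1324303 in colonized Foxp3CNS1-.

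Counts were summed per library and set of cells and scaled to CPM (Python 3.11.15, numpy 2.4.6, scipy 1.17.1, pandas 2.3.3). Genes entered a ratio from 50 UMIs upward, counted over both sets, with exact 95% Clopper-Pearson intervals, and against a floor of 3 counts where a set had 0. Where a few cells carry most UMIs of a gene, such intervals are narrower than the true error. Simulated counts with known folds served to test the calculation. With 1 library per group no test was made.

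Genes named were up to 16 higher (a UMI in at least 10% of s6 cells) and 10 lower (in at least 10% of the other subset cells), of the same direction in all 4 libraries, by ratio of mean CPM. Between libraries they were up to 6 per direction whose interval bound was farthest from a ratio of 1. No gene was named from the mitochondrial genome, the Y chromosome, the antigen receptor loci or the ribosomal proteins, nor Xist or a predicted gene. List members were picked as examples. The members and lists were chosen with earlier results of these data known, and 17 of 48 lists after values of s6 had been seen. Among the 17 were the lists of ribosome biogenesis, one-carbon and serine, nucleotide synthesis, transfer RNA modification and mitochondrial import genes. The S phase, G2 and M phase, quiescence, MYC network and cytosolic ribosomal protein lists were also among them. Counts over lists therefore describe and support nothing. Gene coordinates are from GENCODE vM21 (GRCm38). A gene picked by the naming rule is not reported here.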

Additional observations from a re-analysis of the deposited data

Results flagged for a closer look

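Dnmt3a, a DNA methyltransferase that lays down new methylation marks, differed in opposite directions between colonized and germ-free mice of the strains. In Foxp3CNS1- s6 cells it had 55 UMIs (41.5 CPM) in the colonized and 8 UMIs (18.1 CPM) in the germ-free library, a log2 ratio of 1.2 (0.12 to 2.48). In Foxp3GFP s6 cells it had 30 UMIs (28.4 CPM) in the colonized and 32 UMIs (59.0 CPM) in the germ-free library, a log2 ratio of -1.05 (-1.82 to -0.29). In the other subset cells Dnmt3a had log2 ratios of -0.45 (-0.73 to -0.17) in Foxp3CNS1- and -0.28 (-0.61 to 0.05) in Foxp3GFP. With 1 library per group the difference between the strains was not tested.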

How the results depend on the processing

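No paired analysis was possible because each group has 1 library and no fit was made. The 2043 genes past 2-fold between s6 and the other subset cells were 1284 at a minimum of 200 UMIs, and between 1824 and 2128 when each library was left out in turn. In all 14 alternatives the 26 leading genes kept their direction, which their selection by ratio made likely. Picked for the same direction in all 4 libraries, they could not change it when a library was left out. Between libraries the counts moved with the UMI minimum, the weighting of cells, thinning and the deepest cells. The 127 genes of colonized against germ-free Foxp3GFP were 486 at a minimum of 20 UMIs, 19 at 200, 13 after thinning and 46 without the deepest cells. The 115 of colonized against germ-free Foxp3CNS1- were 515 at 20 UMIs, 17 at 200, 193 with cells weighted equally and 26 after thinning. The 26 of Foxp3CNS1- against Foxp3GFP in germ-free mice were 239 at 20 UMIs, 0 at 200, 48 with cells weighted equally, 3 after thinning and 13 without the deepest cells. The 50 in colonized mice were 268, 8, 109, 18 and 29 under the same settings, and 33 in first cluster 8 only. Of all analysed cells, s6 was 3.76% in colonized Foxp3CNS1-, 2.43% in germ-free Foxp3CNS1-, 3.55% in colonized Foxp3GFP and 2.76% in germ-free Foxp3GFP.

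Log2 ratios of single genes that changed sign were few. For Foxp3CNS1- against Foxp3GFP in germ-free mice, Xcl1 was -0.95 with cells weighted equally, -0.86 after thinning and -3.03 without the deepest cells, and Mcm3 was -0.057 without them, from 9 and 13 UMIs. In colonized mice Il17f was 0.45 with cells weighted equally and 3.37 without the deepest cells (35 against 2 UMIs), S100a4 was 0.33 after thinning, and Hist1h2ap was 0.24 without the deepest cells. Mzb1 in colonized against germ-free Foxp3CNS1- was -3.97 in first cluster 8 only and -3.87 without the cells of at least 10 Jchain UMIs, an alternative added after the data were seen, as was leaving out s8. Both values of Mzb1 set 1 UMI against 5. Between s6 and the other subset cells the plasma cell list, whose median was 2.34, was -0.24 after thinning, -0.32 without cells of at least 10 immunoglobulin UMIs, -0.11 without the deepest cells, -0.53 in first cluster 8 only and -0.33 without the Jchain cells, and the innate-like list, at -1.25, was 0.042 after thinning. In 26 cases a gene had no fold because both libraries were at or under the floor of 3 counts or the bound against it ran against the counts. The causes were not tested. Depth limits these values, since s6 held 86 to 203 cells per library.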
